A study of Homo sapiens with 13 samples.

Results

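CD36, FABP6 and 6 related genes (SCARB1, SCARB2, SLC27A2, FABP1, FABP3 and FABP4) encode proteins that take up, bind or activate fatty acids and other lipids. Every probe set that the platform annotation gives to one of them was taken, which gave 16 of the 22215 probe sets that are not Affymetrix controls, and 8 of 11963 genes. The arrays held human non-small cell lung carcinoma cells in 5 groups. The bone-metastatic lines M5, M4 and M1 filled 3 arrays each, control cells carrying a luciferase reporter 2, and control cells without the reporter 2. Per the labels, the lines came from control cells that were injected into the hearts of mice and recovered from bone, and RNA of 3 groups of cells was pooled for each array. Not given in the sources used here were the parental line, the promoter of the reporter and whether a line is 1 clone. The labels call the arrays of a group biological replicates. In the main fit, of 5 group means, p-values measure the spread between these arrays. The genes were chosen with earlier results of the same arrays known. Differences between a line and control, and between lines, are therefore given as a description, and limma's calls on them (Benjamini-Hochberg adjusted p under 0.05 over all 22215 probe sets) are no independent evidence.

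CD36 is a membrane glycoprotein that binds long-chain fatty acids, oxidised lipoproteins and thrombospondin, and it is best known from adipocytes, muscle, macrophages, platelets and capillary endothelium. SCARB1 and SCARB2 belong to the same class B scavenger receptor family, with a role at the cell surface for SCARB1, which takes cholesteryl esters from high-density lipoprotein, and in lysosomes for SCARB2, which carries the enzyme glucocerebrosidase there. SLC27A2 is a very long-chain acyl-CoA synthetase that also supports fatty acid uptake, chiefly in liver and kidney. The FABP proteins are small carriers that bind lipids in the cytoplasm, among them the liver form FABP1, the heart form FABP3, the adipocyte form FABP4 and FABP6, which binds bile acids in the ileum.

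By the signals of the 62 Affymetrix control probe sets, clustering divided the 13 arrays into 4 clusters. Array cluster 1 held the first array of either control and M1 replicate 2, and array cluster 2 held the second array of either control and the first arrays of M5, M4 and M1. In array cluster 3 were M1 replicate 3 and M4 replicates 2 and 3, and array cluster 4 held M5 replicates 2 and 3 alone. All 13 arrays were closest over all probe sets to an array of their own array cluster, and 4 of 13 to one of their own group. Values are therefore given also within array clusters and with the clusters as a block. With that block M5 is set against control, M4 and M1 through M5 replicate 1 alone. The gap between M5 replicate 1 and the other M5 arrays then does not enter the errors or p-values of the block fit. For the other 2 M5 arrays, array cluster 4 and line M5 cannot be told apart. In the check of the labelled cell type, 5 of 7 epithelial carcinoma markers lay above the array median on all 13 arrays (KRT8, KRT18, KRT19, KRT7 and MUC1), whereas EPCAM and CDH1 lay below the lower quartile on all 13. Of 4 measured lung epithelial markers, SFTPC alone lay above the median on all arrays, and SFTPD lay below the lower quartile on all of them. The summed signal of the epithelial list was 12.87 to 13.20 (log2) in M5, 12.95 to 13.13 in M4 and 12.89 to 13.30 in M1, against 13.24 to 13.30 in control. M5 and M4 lay wholly below control and M1 overlapped it, and the part of this in the results was not tested.

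CD36 was higher than in control in M5 and M1 on both of its probe sets that varied, and close to control in M4. The array carries 3 CD36 probe sets. On probe set 206488_s_at the log2 signals were 7.35, 5.40 and 5.24 in M5, 4.38, 4.37 and 4.33 in M4, and 5.06, 4.96 and 5.53 in M1, against 3.94 and 4.15 in control with luciferase and 4.11 and 4.19 in control without it. No metastatic array was as low as any control array, a separation shown by 0.252% of all probe sets, and M5 replicate 1 stood far above every other array. The order of the group means was M5 (5.99 ± 1.17), M1 (5.18 ± 0.30), M4 (4.36 ± 0.03), control without luciferase and control with luciferase (4.15 ± 0.06 and 4.04 ± 0.15; SD, n = 3 per line and 2 per control). M5 and M1 overlapped, M4 lay below both without overlap, and the ranges of the control kinds overlapped. In these bulk samples, more cells with CD36 RNA and more CD36 RNA per cell cannot be told apart.

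The second CD36 probe set, 209555_s_at, followed the first. It gave 6.28, 3.97 and 4.27 in M5, 3.33, 3.72 and 3.65 in M4 and 4.45, 4.61 and 4.71 in M1, against 3.41 and 3.52 in control with luciferase and 3.30 and 3.40 in control without it. The M5 and the M1 arrays were each above every control array, while M4 overlapped them. Across the 13 arrays, which share their array clusters, its Pearson correlation with 206488_s_at was 0.95, and 0.98 after the mean of each array cluster was removed. The third probe set, 209554_at, did not show the pattern, with correlations of 0.02 and 0.10 to the others. Its signals ran from 4.26 to 4.66 in M5, from 4.23 to 4.41 in M4 and from 4.39 to 4.76 in M1, against 4.14 to 4.65 in control of either kind. The CD36 transcripts that each probe set detects were not analysed here.

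**Figure D1:**
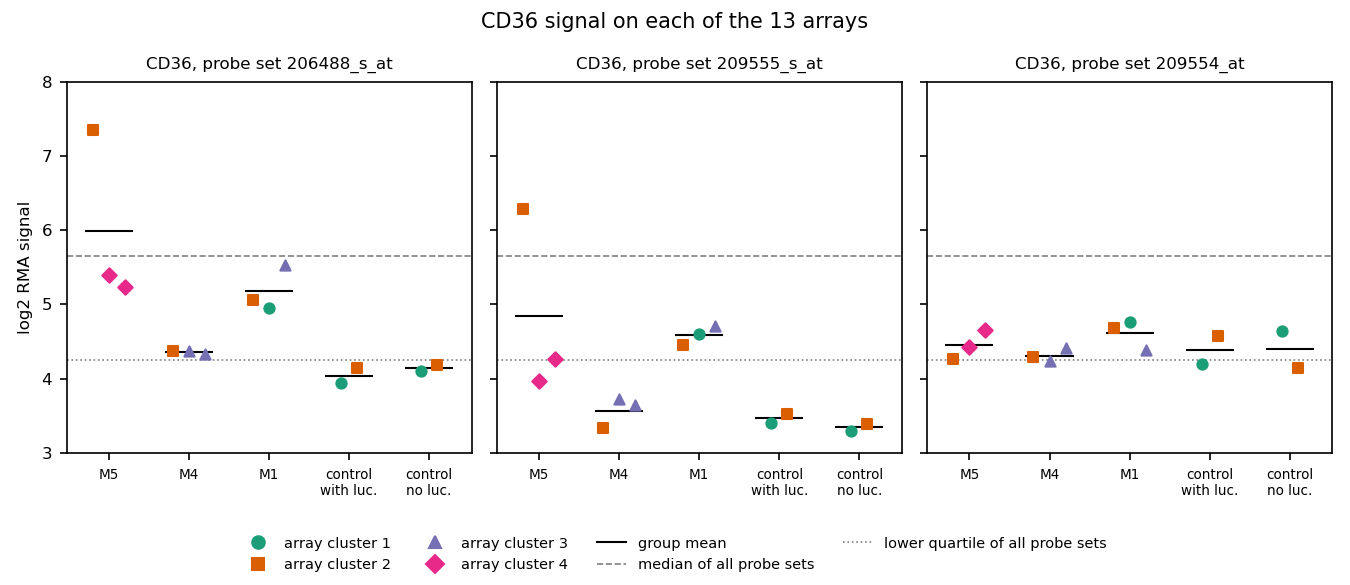
CD36 log2 RMA signal (y axis) on each array, by group (x axis) and probe set, with symbols for the 4 array clusters, black bars for group means and grey lines for the median and the lower quartile of all probe sets. On 206488_s_at and 209555_s_at, M5 replicate 1 is highest at 7.35 and 6.28 and the M1 arrays lie above all control arrays, while on 209554_at all groups overlap.

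In size, M5 exceeded control by 1.90 ± 0.38 log2 units (SE, limma), or 3.73-fold, on 206488_s_at and by 1.43 ± 0.40 (2.70-fold) on 209555_s_at. M1 exceeded control by 1.09 ± 0.38 and 1.18 ± 0.40, and M4 by 0.26 ± 0.38 and 0.16 ± 0.40. These errors pool the spread over all 5 groups, so the wide spread of M5 enters the errors of M1 and M4. The size in M5 rested largely on 1 array. Without M5 replicate 1 the differences were 1.22 and 0.71, and without M5 replicates 2 and 3 the first was 3.25. Of the 13 fits that left out 1 array, 5 called the M5 difference on 206488_s_at. Within array cluster 2, M5 replicate 1 lay 3.18 and 2.82 above the mean of its 2 control arrays, M4 0.21 and -0.13, and M1 0.90 and 0.99. Within array cluster 1, M1 replicate 2 lay 0.94 and 1.25 above control, so the M1 difference was close in both clusters. Within array cluster 3, M4 lay below M1 by -1.18 and -1.02 (M4 minus M1).

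On the control arrays these CD36 signals were low: 206488_s_at lay between the 16.2nd and the 24.7th percentile of the probe sets of its array, and 209555_s_at between the 1.14th and the 6.02nd. In M1 they lay at percentiles 39.3 to 48.2 and 30.4 to 35.5, in M5 replicate 1 at 70.7 and 57.9. Folds of dim probe sets on this scale are commonly too small. Markers of other cell types that carry CD36 are given beside it. The summed signal of 5 adipocyte markers ran from 6.88 to 7.74 (log2) in M5, 6.93 to 7.19 in M4 and 6.97 to 7.09 in M1, against 6.95 to 7.06 in control, with LIPE at a mean of 5.89 in M5 and 5.09 in control and with ADIPOQ below the lower quartile on all 13 arrays. For 5 macrophage and monocyte markers the range was 6.72 to 7.13 in M5 against 6.73 to 6.98 in control, for 5 endothelial markers 6.52 to 6.66 against 6.49 to 6.65, and for 5 platelet markers 7.54 to 8.04 against 7.56 to 7.91, with CD163, VWF, KDR and PPBP below the lower quartile on all arrays. Not all of these markers were dim: the platelet markers ITGA2B and GP9 lay above the array median on all 13 arrays, and the macrophage marker AIF1 on 7. For 4 measured muscle markers it was 6.21 to 6.73 against 6.23 to 6.45. None of these lists held a gene called in M5, against 1.87% of all 11963 genes. At that share nothing is read from 0 calls in lists this short. The part of these cell types in the CD36 difference was not tested.

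Because CD36 and FABP6 were both high in M5, the sequence before their starts is shown. RefSeq (GRCh38.p14) lists 6 start windows for CD36 and 1 for FABP6, each from 250 bases before the start to 50 after it. The windows below are the FABP6 window (chr5:160229256-160229555, plus strand) and the CD36 windows 1 and 5 (chr7:80601957-80602256 and chr7:80645999-80646298, plus strand), chosen because they hold the TATA box core TATAAA, read on both strands and set in capitals. In FABP6 the core begins 30 bases before the start, on the minus strand (TTTATA). In CD36 it begins 211 and 216 bases before the start.
FABP6: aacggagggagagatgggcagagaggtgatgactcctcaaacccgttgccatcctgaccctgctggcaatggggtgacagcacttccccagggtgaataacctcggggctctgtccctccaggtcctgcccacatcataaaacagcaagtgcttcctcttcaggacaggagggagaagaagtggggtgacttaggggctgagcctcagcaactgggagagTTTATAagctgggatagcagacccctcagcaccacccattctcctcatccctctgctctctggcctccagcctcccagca
CD36 window 1: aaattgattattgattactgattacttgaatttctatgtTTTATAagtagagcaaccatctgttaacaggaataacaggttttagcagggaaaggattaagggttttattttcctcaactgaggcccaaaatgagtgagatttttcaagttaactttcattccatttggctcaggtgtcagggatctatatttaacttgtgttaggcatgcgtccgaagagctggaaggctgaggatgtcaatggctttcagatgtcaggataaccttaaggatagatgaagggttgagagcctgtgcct
CD36 window 5: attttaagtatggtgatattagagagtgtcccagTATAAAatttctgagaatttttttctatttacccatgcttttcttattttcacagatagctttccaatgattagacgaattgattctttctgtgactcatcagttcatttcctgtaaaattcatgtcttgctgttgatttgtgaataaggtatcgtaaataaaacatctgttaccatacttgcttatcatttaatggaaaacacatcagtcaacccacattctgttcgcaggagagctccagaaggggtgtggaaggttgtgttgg

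TATAAA occurred in 11.5% of all 35116 RefSeq windows. It was also in the window of FABP1, on the plus strand, beginning 31 bases before the start. FABP1 was below the lower quartile on all 13 arrays, so the core is not particular to the genes high in M5. The nuclear receptor half-site AGGTCA, found in 13.8% of windows on either strand, was in neither the FABP6 window nor any CD36 window, and FABP1 held it at 2 places. The strict form of the PPAR and RXR element is a pair of AGGTCA in the same direction with 1 base between them. It was in 0.0228% of windows and in none of the 11 windows of members that were used. At that share nothing is read from its absence. The windows differed in base composition, with 57.7% G and C in FABP6 and at most 43.7% over the CD36 windows. Windows of 6 of the 8 members were used: SCARB1 had none, and FABP4 was left out of the search. The array does not tell which CD36 start was in use.

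Of the other class B receptors, SCARB1 overlapped between all groups on its bright probe set 201819_at, which gave 8.63, 8.84 and 9.02 in M5, 8.97, 8.84 and 8.75 in M4 and 9.06, 8.79 and 8.65 in M1, against 8.75 and 8.94 in control with luciferase and 8.78 and 8.93 in control without it. The differences from control were -0.02 ± 0.13 in M5, 0.00175 ± 0.13 in M4 and -0.02 ± 0.13 in M1. With the block, M5 minus control was -0.31 ± 0.13, and within array cluster 2 it was -0.30, and it was not called in either fit. Its probe sets 215835_at and 215834_x_at lay below the array median on all 13 arrays. The first of them averaged 4.75 ± 0.30 in M5, 4.26 ± 0.12 in M4 and 4.45 ± 0.02 in M1, against 4.39 ± 0.10 over the 4 control arrays (SD), the M5 arrays of array cluster 4 being highest at 4.87 and 4.96. The second ran from 4.10 to 4.52 over all metastatic arrays, against 4.30 to 4.50 in control.

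SCARB2 was lower in M5 than in control on 1 of its 3 probe sets, 201646_at. That probe set gave 6.97, 6.38 and 6.80 in M5, 7.53, 7.54 and 7.35 in M4 and 7.11, 7.48 and 7.42 in M1, against 7.43 and 7.49 in control with luciferase and 7.28 and 7.27 in control without it. Every M5 array lay below every other array of the series. M5 minus control was -0.65 ± 0.14 log2 units (1.57-fold lower), M4 minus control 0.10 ± 0.14 and M1 minus control -0.03 ± 0.14. Probe set 201647_s_at gave 5.99, 5.28 and 5.80 in M5, against 5.85 to 6.39 in control, an overlap, with a difference of -0.50 ± 0.17. The third, 215754_at, was below the lower quartile on all 13 arrays.

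The SCARB2 difference was smaller within array cluster 2 than over all arrays. Within that cluster, M5 replicate 1 differed from control by -0.41 on 201646_at and -0.34 on 201647_s_at, M4 replicate 1 by 0.15 and -0.14 and M1 replicate 1 by -0.27 and -0.36. Within array cluster 1, M1 replicate 2 differed from control by 0.12 and 0.22. In array cluster 4 the M5 arrays lay a further -0.38 and -0.44 from M5 replicate 1. With the block the M5 difference on 201646_at was -0.35 ± 0.18, and it was not called. Leaving out 1 array at a time, it lay between -0.78 and -0.48 and was called in 2 of 13 fits. The part of the array clusters in this difference was not tested.

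SLC27A2, the acyl-CoA synthetase, was highest in M5 replicate 1 on both of its probe sets. On 205769_at it gave 8.36, 8.08 and 7.94 in M5, 7.40, 7.99 and 7.82 in M4 and 7.42, 7.29 and 7.86 in M1, against 7.43 and 7.76 in control with luciferase and 7.88 and 7.94 in control without it. The M5 arrays lay above all M1 arrays and overlapped M4. They also lay above all control arrays, but the lowest M5 and the highest control array both rounded to 7.94. On 205768_s_at the signals were 7.93, 7.30 and 7.30 in M5, 7.05, 7.46 and 7.34 in M4 and 6.80, 6.75 and 7.52 in M1, against 6.98 and 7.22 in control with luciferase and 7.45 and 7.30 in control without it, and every line overlapped control. The probe sets correlated at 0.92 over the 13 arrays.

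M5 minus control was 0.38 ± 0.17 and 0.27 ± 0.20 log2 units for SLC27A2, and neither was called. Within array cluster 2, M5 replicate 1 differed from control by 0.52 and 0.67, M4 replicate 1 by -0.45 and -0.21 and M1 replicate 1 by -0.43 and -0.46. M1 replicate 2 was also below the controls of array cluster 1, by -0.36 and -0.47. In array cluster 3, M4 minus M1 was 0.04 and -0.12. With the block, M5 minus M4 was 0.93 ± 0.14 and 1.00 ± 0.16, and M5 minus M1 0.94 ± 0.14 and 1.06 ± 0.16, against 0.39 ± 0.18, 0.23 ± 0.22, 0.60 ± 0.18 and 0.49 ± 0.22 without it. The values with the block rest on M5 replicate 1 alone. On 205768_s_at the other M5 arrays, both at 7.30, lay within the M4 range of 7.05 to 7.46. On 205769_at they stood at 8.08 and 7.94, against 7.40 to 7.99 in M4.

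FABP6 was higher than in control in M5, and close to control in M4 and M1. Its single probe set, 210445_at, gave 6.80, 7.47 and 7.65 in M5, 5.82, 5.78 and 5.72 in M4 and 5.69, 5.25 and 5.87 in M1, against 5.49 and 5.66 in control with luciferase and 5.44 and 5.91 in control without it. Every M5 array lay above every other array, and M4, M1 and control overlapped. FABP6 rose 3.21-fold in M5 (1.68 ± 0.20 log2 units, SE). It lay between percentiles 64.1 and 76.3 of the probe sets of its array in M5 and between 47.1 and 53.5 in control. M4 minus control was 0.15 ± 0.20 and M1 minus control -0.02 ± 0.20.

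**Figure D2:**
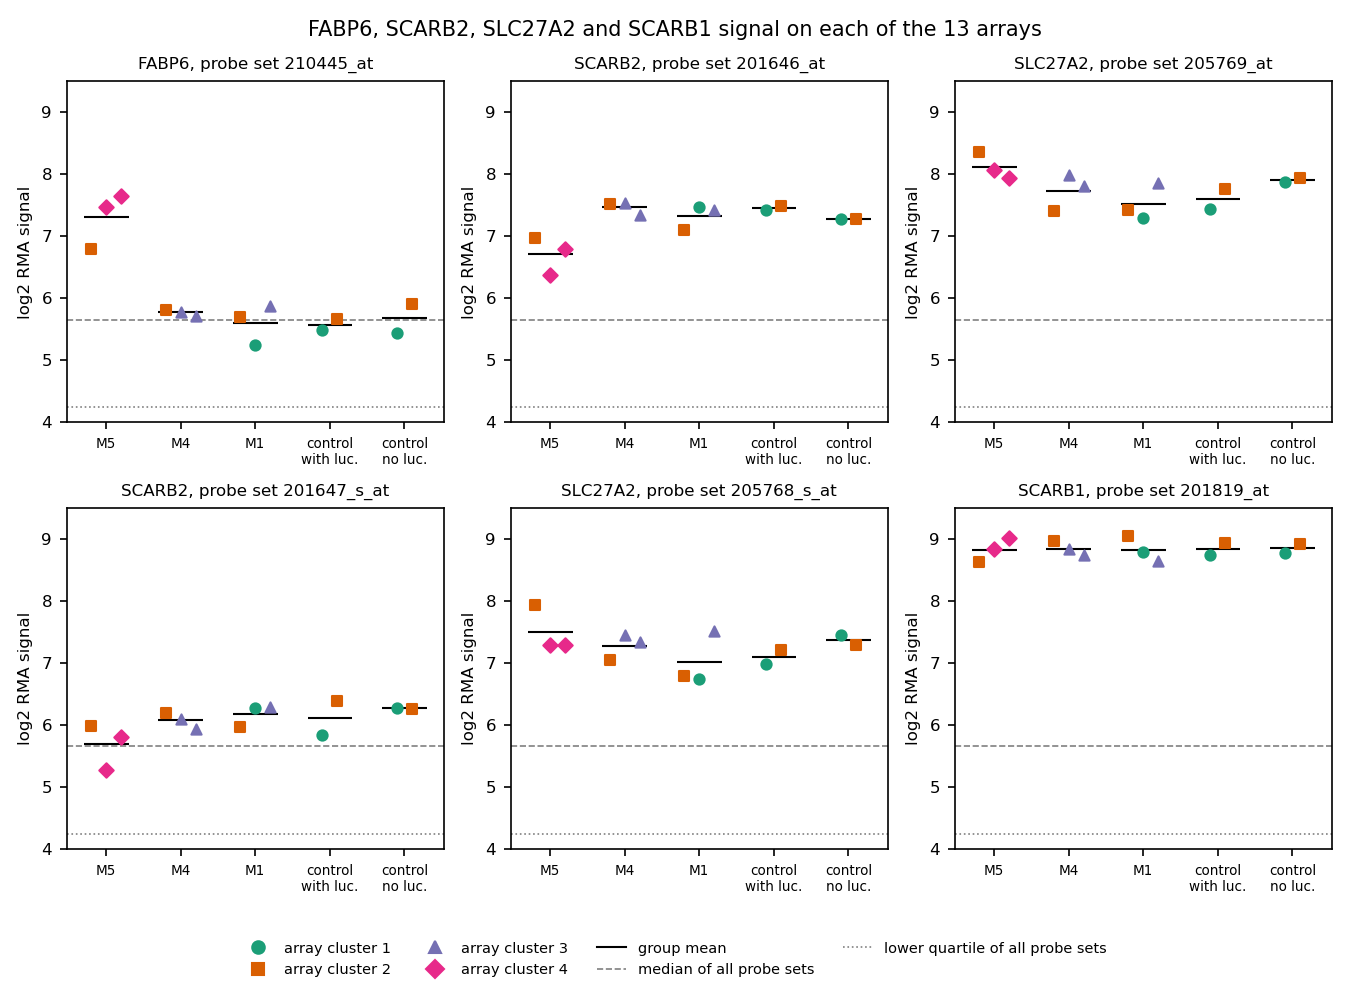
Log2 RMA signal (y axis) of FABP6, SCARB2, SLC27A2 and SCARB1 on each array, by group (x axis), with symbols for the 4 array clusters, black bars for group means and grey lines for the median and the lower quartile of all probe sets. The M5 arrays of FABP6 lie at 6.80 to 7.65, above all others, and those of SCARB2 201646_at at 6.38 to 6.97, below all others.

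Array cluster 2 is the one with both M5 and control arrays, and its M5 value rests on 1 array. There M5 replicate 1 lay 1.02 above the mean of its controls, M4 replicate 1 0.03 above and M1 replicate 1 differed by -0.10. The M5 arrays of array cluster 4 were 0.76 higher than M5 replicate 1, whereas CD36 206488_s_at ran the other way between them, by -2.03. With the block the M5 difference of FABP6 was 0.98 ± 0.14, and without M5 replicate 1 it was 1.94. It was called in all 13 fits that left out 1 array, but not without array cluster 4, where it was 1.18 (limma adjusted p = 0.0861). The part of the array clusters in this difference was not tested. Of other cell types with such carriers, 6 enterocyte markers summed to 7.25 to 7.75 in M5, 7.20 to 7.60 in M4 and 7.49 to 7.71 in M1, against 7.40 to 7.79 in control, and 5 hepatocyte markers to 6.84 to 7.18 in M5 against 6.87 to 7.04 in control. SI, ALB and APOB lay below the lower quartile on all 13 arrays. In contrast APOA4 lay above the array median on 8 arrays and CDX2 on 5, and APOA1, TTR, SERPINA1 and ALPI were below the lower quartile on 0. None of these markers was called in M5, against 1.87% of all 11963 genes, and nothing is read from 0 calls in lists this short. The part of these cell types in the FABP6 difference was not tested.

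The remaining carriers were dim on all arrays. FABP1 lay below the lower quartile on all 13 arrays, with 3.41 to 3.83 in M5, 3.37 to 3.73 in M4 and 3.51 to 3.96 in M1, against 3.35 to 3.80 in control. FABP4 ran from 3.86 to 4.34 in M5, 3.95 to 4.25 in M4 and 4.07 to 4.35 in M1, against 3.93 to 4.09 in control, and was below the lower quartile on 10 of 13 arrays. For FABP3, 205738_s_at gave 4.66 to 5.05 in M5, 4.72 to 4.95 in M4 and 4.52 to 4.81 in M1, against 4.46 to 4.93 in control, and 214285_at was below the lower quartile on all 13. All 3 genes overlapped control in every line, and their differences from control lay between -0.08 and 0.22 log2 units. At such low signals a small change cannot be detected.

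Counted over the members, 2 of 16 probe sets were called higher in M5 (CD36 206488_s_at and FABP6), against 0.261% of all probe sets, and 1 was called lower (SCARB2 201646_at), against 1.13%, which makes 3 either way against 1.4%. With the block 3 were called higher (both varying CD36 probe sets and FABP6) and 0 lower, against 0.842% higher and 1.54% either way. In M4, 0 of 16 were called by limma without the block or with it, against 0.009% and 0.108% of all probe sets, with 0 and 2 members at an unadjusted p under 0.05, beside 1393 and 1456 of all 22215 probe sets. In M1 the count was 0 without the block, against 0.0135%, with 2 members and 620 of all probe sets at an unadjusted p under 0.05, and 2 with it (both varying CD36 probe sets), against 0.239%. For the mean of the 3 lines it was 0 (against 0.063%, with 3 members and 1659 of all probe sets at an unadjusted p under 0.05) and, with the block, 2 (against 0.428%). In the M5 arrays 4 member probe sets lay wholly above control and 1 wholly below (5.59% and 5.82% of all probe sets), in M4 1 wholly above (5.34%) and in M1 2 (2.31%). Since the genes were picked on these contrasts, nothing is read from these shares.

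**Figure D3:**
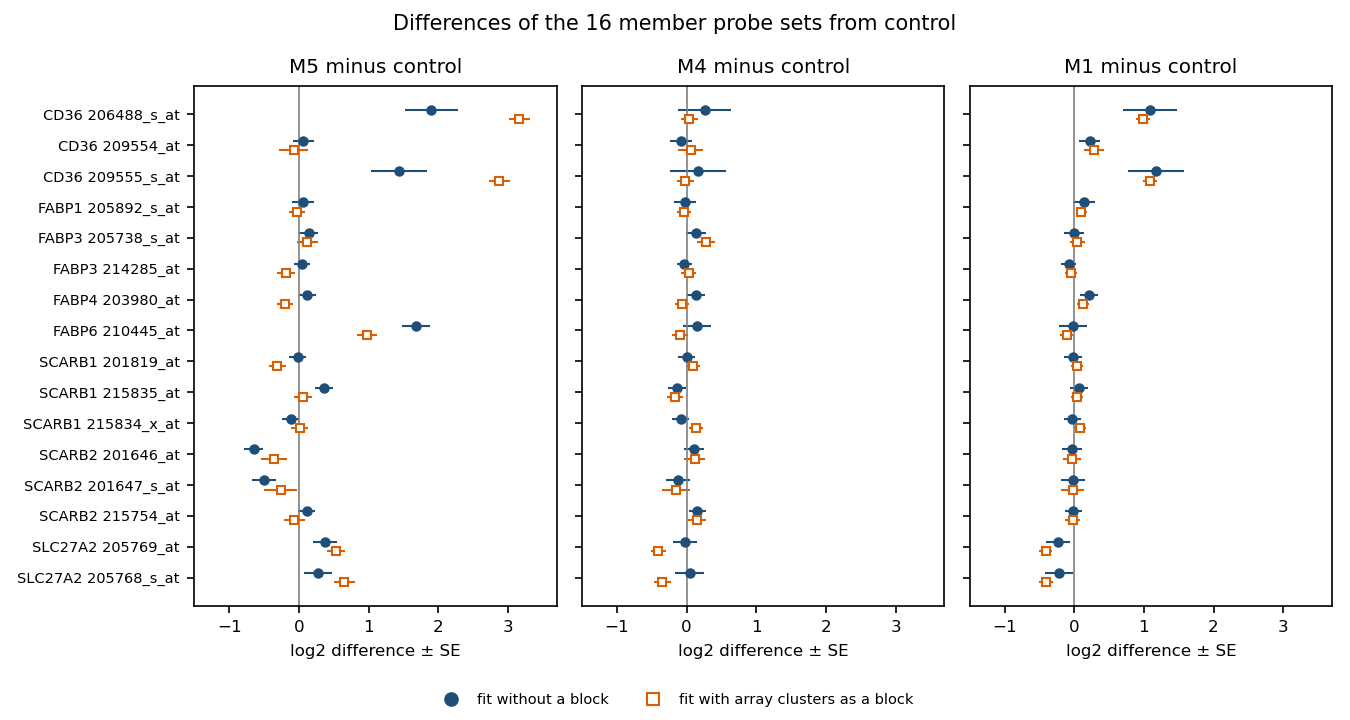
Log2 difference from control (x axis, with SE) of the 16 probe sets (y axis) in M5, M4 and M1, from the fit without a block (filled circles) and with array clusters as a block (open squares). CD36 206488_s_at stands at 1.90 without and 3.16 with the block in M5, FABP6 at 1.68 and 0.98, and SCARB2 201646_at at -0.65 and -0.35.

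Set directly against each other, M5 exceeded M4 by 1.53 ± 0.21 for FABP6 and by 1.64 ± 0.41 for CD36 206488_s_at, and M5 minus M4 was -0.75 ± 0.15 for SCARB2 201646_at. Without the block, FABP6 and SCARB2 were called in that comparison (2 of 16, against 1.25% of all probe sets), SCARB2 in 4 of the 13 fits that left out 1 array. With the block the calls were FABP6, both varying CD36 and both SLC27A2 probe sets (5 of 16, against 1.59%). M5 exceeded M1 by 1.71 ± 0.21 for FABP6, the only member called there without the block (1 of 16, against 0.617%; with it 5, against 1.37%), and by 0.81 ± 0.41 for CD36 206488_s_at. Without M5 replicate 1 the differences on CD36 206488_s_at were 0.96 (M5 minus M4) and 0.13 (M5 minus M1). On CD36 209555_s_at, M5 minus M1 was 0.25, and it turned to -0.47 without that array. M4 minus M1 was -0.82 ± 0.41 and -1.02 ± 0.43 on the CD36 probe sets, with 0 of 16 members called (against 0.0135%; 1 member and 621 of all probe sets at an unadjusted p under 0.05) and, with the block, 2 (against 0.0855%).

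The members were picked for the metastatic lines, not for the luciferase reporter, so that comparison was tested. Cells with the reporter differed from cells without it by -0.10 ± 0.50 on CD36 206488_s_at, -0.10 ± 0.26 for FABP6 and 0.18 ± 0.18 for SCARB2 201646_at. The difference farthest from 0 was that of SLC27A2 205769_at, -0.31 ± 0.22, which was -0.18 within array cluster 2 and -0.45 within array cluster 1. By limma 0 of 16 members and 0 (0%) of all 22215 probe sets were called, and 0 and 279 had an unadjusted p under 0.05. Adding the block left 0 members called, against 0.018% of all probe sets. At an unadjusted p under 0.05 there were then 2 of 16 members and 1251 of 22215 probe sets. The errors without the block pool the spread over all 5 groups, not that of the control arrays alone. For CD36 206488_s_at the SD was 1.17 in M5, against 0.15 and 0.06 in control with and without luciferase. With that pooled spread and 2 arrays per kind, a difference of the size of these errors cannot be told from 0.

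Each member lies on a chromosome of its own, CD36 on 7, FABP6 on 5 and SCARB2 on 4, and the genes beside these 3 were examined. The 20 measured genes nearest to FABP6, 10 on either side, had a median M5 difference of 0.06, with a range from -0.44 to 0.50 and 0 called, against 1.68 for FABP6. On all of chromosome 5 the median over 507 genes was 0.05 in M5, -0.10 in M4 and -0.09 in M1. Around CD36 the 20 neighbours had a median of -0.00945 in M5 (range -1.25 to 0.34) and 0.06 in M1 (-0.38 to 0.57), with 0 called in either line. Of all 11963 genes, 1.87% were called in M5 and 0.0251% in M1, so nothing is read from 0 calls among 20 neighbours. Around SCARB2 the median in M5 was 0.03 and the lowest neighbour stood at -0.61.

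The genes whose signals ran most like CD36 206488_s_at over the 13 arrays, among 211 with an SD of at least 0.5, were CHRNA9 (Pearson r = 0.93), PPEF1 (0.86), JAG1 (0.78), SERPIND1 (0.71) and TSPAN8 (0.67). CHRNA9 is a nicotinic acetylcholine receptor subunit, JAG1 a Notch ligand, SERPIND1 heparin cofactor II and TSPAN8 a tetraspanin. CHRNA9 averaged 6.15 in M5, 4.84 in M1 and 4.08 in M4 and was lowest in control, the same order of groups as CD36. PPEF1, JAG1 and SERPIND1 had that order too, and TSPAN8 did not. Selection by correlation favours such a shared order, so nothing is read from it. For FABP6 the nearest were SERPIND1 (0.89), NIBAN1 (0.84), OLFML2A (0.82), PPEF1 (0.81) and PTGES (0.80), the last a prostaglandin E synthase. SERPIND1 averaged 7.62 in M5, against 4.17 in control. With array cluster means removed, the r values ran from 0.88 to 0.96 for the CD36 set and from 0.56 to 0.90 for the FABP6 set. CD36 206488_s_at and FABP6 themselves correlated at 0.56, and at 0.79 without the cluster means. For CD36 209555_s_at and FABP6 the values were 0.35 and 0.72. Because array cluster 4 holds M5 arrays alone, removing its mean also takes out the shift between M5 arrays. From array cluster 2 to array cluster 4 that shift was -2.03 for CD36 206488_s_at and 0.76 for FABP6. These r values describe arrays that share array clusters and groups.

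Other genes of lipid handling were examined in 8 lists of 168 genes, of which 133 were measured by a probe set of their own. In M5, 3 of 133 were called, or 2.26%, against 1.87% of all 11963 genes, and all 3 fell. In M4 and M1, 0 were called by limma (10 and 4 at an unadjusted p under 0.05), against 0.0167% and 0.0251% of all genes. With the block 1 of 133 was called in M5, against 1.76% of all genes, and 0 in M4 and M1, against 0.134% and 0.234%. The median difference over the 133 genes was 0.02 in M5, 0.01 in M4 and 0.02 in M1, against 0.03, -0.00111 and -0.00785 over all genes.

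CAV1, the caveolae protein that has been tied to fatty acid uptake, fell 1.77-fold in M5, to 9.63, 8.89 and 8.86, against 9.83 and 10.10 in control with luciferase and 9.87 and 10.01 in control without it (log2 -0.83 ± 0.18; limma adjusted p = 0.0432). Among 12 measured binding and transport proteins it was the one called, and 11 were not. ABHD5, the co-activator of the triglyceride lipase PNPLA2, fell 1.68-fold, to 6.17, 6.02 and 5.68, against 6.86 and 6.63 and 6.83 and 6.51 in the same controls (-0.75 ± 0.14; limma adjusted p = 0.0227). PLIN2, a lipid droplet coat protein and PPAR target, fell 1.54-fold, to 6.03, 5.54 and 6.02, against 6.42 and 6.55 and 6.35 and 6.63 in these controls (-0.62 ± 0.13; limma adjusted p = 0.0432). With the block the 3 differences were -0.24, -0.42 and -0.56 and none was called. Leaving out 1 array at a time kept the call of ABHD5 in 8 of 13 fits and those of CAV1 and PLIN2 in 1, the fit without M5 replicate 1. In M4, CAV1 stood at 9.51, 9.57 and 9.37, against 9.83 to 10.10 in control (M4 minus control -0.47). PLIN2 in M4 lay above every control array, at 6.96, 6.78 and 6.74 (0.34), as did 5.34% of all probe sets. ABHD5 in M4 differed from control by -0.14. M1 minus control was -0.20 for CAV1, -0.20 for ABHD5 and 0.08 for PLIN2. None of these M4 and M1 differences was called.

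List by list, lipid storage and lipolysis (21 measured) had ABHD5 and PLIN2 called lower and 19 not called in M5, with a median of 0.14. The list of PPAR, RXR and LXR regulators and PPAR targets (15 measured) had PLIN2 called lower and 14 not called, with a median of 0.00317. Fatty acid activation and beta-oxidation (30 measured) had 0 called without the block. With it the acyl-CoA synthetase ACSL4 was called higher at 1.00 ± 0.13 (limma adjusted p = 0.00428), resting on M5 replicate 1. ACSL4 stood at 5.52 in that array and at 4.08 and 4.01 in the other M5 arrays, against 4.41 to 4.54 in control, and without the block its difference was 0.07. Other scavenger and lipoprotein receptors (11 measured), CD36 ligands and signalling partners (15), bile acid handling genes (14) and partners of SCARB1 and SCARB2 (17) had 0 called in M5, with or without the block, and medians of 0.12, -0.03, -0.02 and 0.06. The lowest difference of all 133 genes was that of the CD36 ligand THBS1, named after its value was seen, at -1.37 in M5, -1.02 in M4 and -0.39 in M1, and it was not called.

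**Figure D4:**
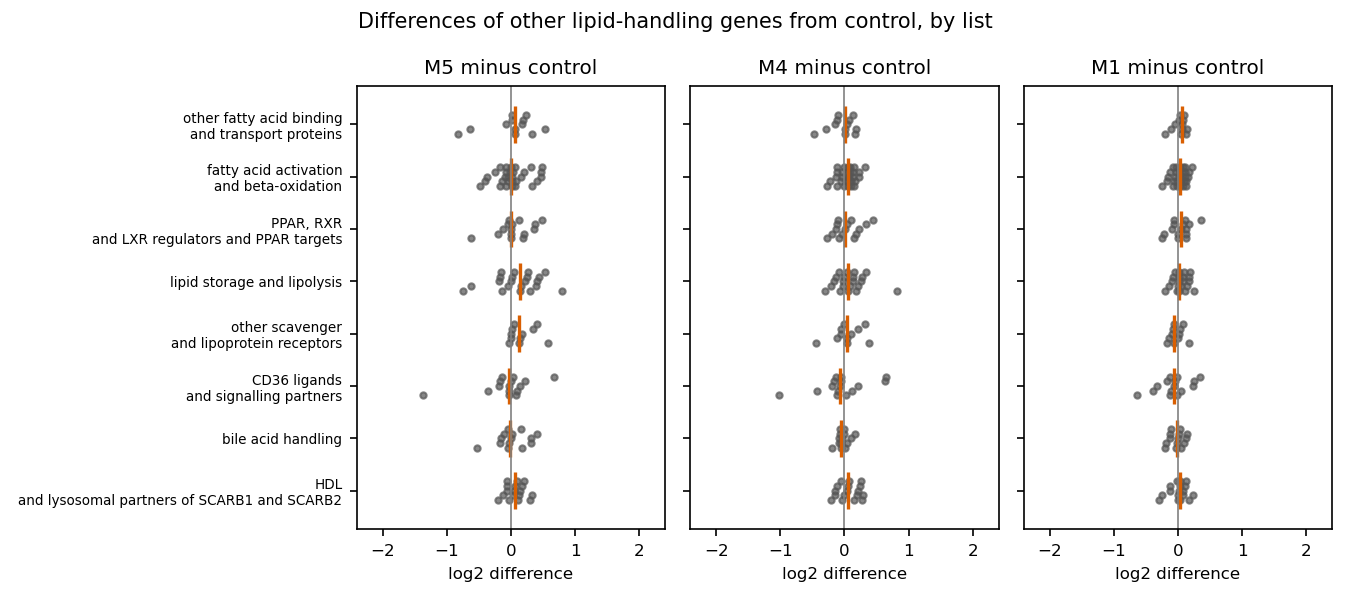
Log2 difference from control (x axis) of the measured genes of 8 lists (y axis) in M5, M4 and M1, with a dot for each gene and an orange bar for the median of each list. The list medians lie between -0.07 and 0.14, and single genes between -1.37 and 0.82.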

How the data were processed

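RNA of 13 samples was hybridised to 1 Affymetrix array each. The authors deposited log2 signals for 22277 probe sets, made with RMA per the submitters' processing notes. Further steps and software versions: not given in the sources used here. The number of arrays limits the precision. Probe sets were named through the platform annotation and RefSeq (GRCh38.p14): 19064 name 1 gene, 1043 several and 2108 none, and 62 control probe sets entered no test.

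Differences were fitted with limma (3.58.1, in R 4.3.3) as 5 group means over all 13 arrays, control being the mean of both kinds. Calls used an adjusted p under 0.05 over 22215 probe sets. Array clusters came from Ward clustering of the control probe sets. Alternatives were blocks for array cluster or replicate number, an intensity trend, fewer arrays or probe sets, other scalings, a stricter threshold, either control alone and each array left out. Leaving out array cluster 4 was added after the data were seen. Lists used the probe set of highest mean for each gene, and genes called in M5 were named. The code was tested on simulated data. The members and lists were chosen with earlier results of these data known.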

Additional observations from a re-analysis of the deposited data

Results flagged for a closer look

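The direct comparison of lines differed for 2 members. FABP6 was higher in M5 than in M4 by 1.53 log2 units and higher in M5 than in M1 by 1.71. On probe set 201646_at of SCARB2, M5 minus M4 was -0.75. Each passed limma's adjusted p under 0.05 over all probe sets in the fit without a block, and the members had been picked with these results known. With array clusters as a block SCARB2 was not called (-0.47; limma adjusted p = 0.338), and it was called in 4 of 13 fits that left out 1 array. FABP6 was called with that block in both comparisons and in 13 of 13 such fits, but not with only the arrays compared or without array cluster 4. No member probe set had a control array that stood apart from the other 3 by Dixon's test. With 4 control arrays such a test can flag only a wide gap, so nothing is read from its outcome.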

How the results depend on the processing

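Over all alternatives, 151 counts of called members stayed within 1.5 times the reported count and 41 did not, while 3265 of the log2 differences moved by less than the spread between arrays and 103 by more. The 151 include counts that were 0 as reported and stayed at 0, for which a 1.5-fold rule says little. The tally therefore does not show that the counts were stable where members were called. Counts of called members from a single fit are followed, in brackets, by the number of all 22215 probe sets called in it. Leaving out array cluster 4 leaves 1 M5 array, so its counts of called members are not given. Called members in M5 minus control numbered 3 as reported (310), 1 with a replicate block (102) and 0 with only the arrays compared (18). They numbered 1 at an adjusted p under 0.01 (56), and 1 with control without luciferase (66) or with luciferase (59) alone. Without 1 array they numbered 1 to 6, the 6 without M5 replicate 1 (4947). M1 minus control gave 0 as reported (3), 2 with array clusters as a block (53) and 1 with only the arrays compared (8). Without 1 array it gave 0 to 2, the 2 without M5 replicate 1 (17). The mean of the lines gave 0 as reported (14) and 2 with the cluster block (95). Without 1 array it gave 0 to 3, the 3 without M5 replicate 1 (404). M5 minus M4 gave 2 as reported (278), 5 with the cluster block (354) and 1 with a replicate block (160). It gave 0 with only the arrays compared (33) and 1 at an adjusted p under 0.01 (73). Without 1 array it gave 1 to 5, the 5 without M5 replicate 1 (3654). M5 minus M1 gave 1 as reported (137), 5 with the cluster block (304) and 0 with only the arrays compared (10). Without 1 array it gave 1 to 5, the 5 without M5 replicate 1 (3746). M4 minus M1 gave 0 as reported (3) and 2 with the cluster block (19). Without 1 array it gave 0 to 1, the 1 without M5 replicate 1 (7). Counts for M4 minus control and for the reporter stayed at 0, beside 2 and 0 of all probe sets called in the reported fit. The cause of these changes was not tested. The replicate numbers are not taken as pairs. Deviations from group means correlated between -0.52 and 0.54 for same-numbered arrays and between -0.54 and 0.52 for others. In a group of 2 arrays the deviations mirror each other, so these ranges cannot decide whether numbers are pairs. For 8 of 13 arrays the closest array of another group, after group means, had the same number, and for 10 it was of the same array cluster. No chance level is given for these counts. The FABP6 difference of M5 from control lay between 0.98 and 1.94 and was called in 10 of 12 other alternatives, not with only the arrays compared or without array cluster 4. Dim probe sets limit what FABP1, FABP3, FABP4 and CD36 in control can show.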
